A study of Ipomoea batatas with 12 samples.

Results

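The comparison described here set sweet potato leaves treated for 1 h with the peptide IbHypSysIV against leaves treated for 1 h with water. Its members are the 8 libraries, of 12 in the series, whose source name gives one of these treatments, 4 for each. All came from the third leaf of Ipomoea batatas Lam. of cultivar Tainong 57, grown from scions in climate chambers. The source names differ between the groups only in what was applied. The library titles also end in running numbers that do not overlap between the groups, and their meaning is not stated. Which of the library kits named in the labels each library used is not stated. How much peptide was used, and how it reached the leaf, is not stated in the labels. The other 4 libraries of the series, treated with the peptide IbPep1, were used only where stated. Whether the replicates were separate plants is not stated either, and p-values therefore refer to the spread between these libraries, which can be technical.

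Hydroxyproline-rich systemins are short glycosylated signalling peptides that plants cut from larger secreted precursors. They act as wound signals: a leaf that senses them turns on genes of defence against chewing insects. In sweet potato, peptides of this family are known to induce sporamin, a protein with trypsin inhibitor activity. The comparison asks which leaf genes have responded within the first hour. The deposited table lists gene identifiers without names, and none of the 32301 identifiers (0) was found in the reference gene table. The genes are therefore described by level, size of change and behaviour across libraries. Leaf markers and defence gene lists could not be read, and no role is given to any identifier.

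Total counts ranged from 20243058 to 23898419 in water and from 16607188 to 25073251 in IbHypSysIV, so that 3 counts, taken as the detection floor, were worth 0.120 to 0.181 CPM (counts scaled to a common library total). The floor covers counting error only. Water replicate 3 was unlike its group. Across genes, on log2 CPM, it correlated with the rest of its group at 0.934 to 0.950 and with the IbHypSysIV libraries at 0.929 to 0.948. Water replicates 1, 2 and 4 correlated with each other at 0.979 to 0.985. The IbHypSysIV libraries correlated with each other at 0.950 to 0.978 (median 0.963). With water replicates 1, 2 and 4 they correlated at 0.933 to 0.969 (median 0.962). By the median, the treated libraries were thus about as close to these water libraries as to each other. Because water replicate 3 stood apart from its group, the counts and the named genes are given with all 8 libraries and again without it. That library was left out for its values in these same data, so p-values from the fit without it can be too small.

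With all 8 libraries, 175 genes differed between IbHypSysIV and water, of which 93 were higher and 82 lower. They were 0.776% of the 22547 genes tested (0.412% higher and 0.364% lower) at a Benjamini-Hochberg adjusted p under 0.05 in the quasi-likelihood test of edgeR. Without water replicate 3 the same test called 603 genes, 320 higher and 283 lower, or 2.65% of 22746 tested (1.41% higher and 1.24% lower). All 175 genes called with 8 libraries were among the 603. The smallest adjusted p was 0.00574 with 8 libraries and 0.00411 without water replicate 3. A further 630 genes with 8 libraries, and 1382 without water replicate 3, had an adjusted p from 0.05 up to 0.1.

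RNA came from whole leaves, so fewer cells of a type and less RNA per cell cannot be told apart in any of these genes. The changes were mostly moderate in size. Among the 93 genes that rose the median was 2.66-fold and the largest 32.4-fold, and 71 rose at least 2-fold, 18 at least 4-fold and 5 at least 8-fold. Among the 82 that fell the median was 2.19-fold and the largest 11.3-fold, and 53 fell at least 2-fold, 7 at least 4-fold and 2 at least 8-fold. The smallest called changes were 1.57-fold upward and 1.502-fold downward. Over all genes tested the median change was 1.19-fold in either direction. Large fitted changes were often not called: of 94 genes with a fitted change of at least 4-fold, 25 passed the test. Without water replicate 3 the medians were 2.28-fold for the 320 genes that rose and 2.06-fold for the 283 that fell, and changes of at least 4-fold were found in 42 and 24 of them.

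The genes that passed the test were somewhat more abundant than the genes tested. Their median level over the 8 libraries was 25.8 CPM for those that rose and 22.7 CPM for those that fell, against 13.7 CPM over all genes tested. The median of those that rose was 11.4 CPM in water and 37.6 CPM after IbHypSysIV, and that of those that fell was 33.2 and 15.2 CPM. CPM is not corrected for gene length, so these medians compare sets and conditions, not single genes. The share of genes called was 0.0513% below 1 CPM, where the median standard error (SE) of the log2 fold change was 0.44. It was 0.587% from 1 to 10 CPM (SE 0.28), 1.03% from 10 to 100 CPM (SE 0.18) and 0.869% at 100 CPM or more (SE 0.20). In the fit without water replicate 3 these shares were 0.980%, 2.21%, 3.18% and 3.37% in the same order of levels. Genes below 1 CPM had the largest SE and the lowest share of calls in both fits, while the level with the highest share differed. No gene stood at 0 in all water libraries and at 3 or more counts in all IbHypSysIV libraries, and none showed the reverse. With water replicate 3 set aside, 2 genes stood at 0 in the other water libraries and at 3 or more counts in all IbHypSysIV libraries, and 0 showed the reverse. Of the 175 genes, 1 had a mean below 3 counts in water and 0 had one with IbHypSysIV.

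**Figure D1:**
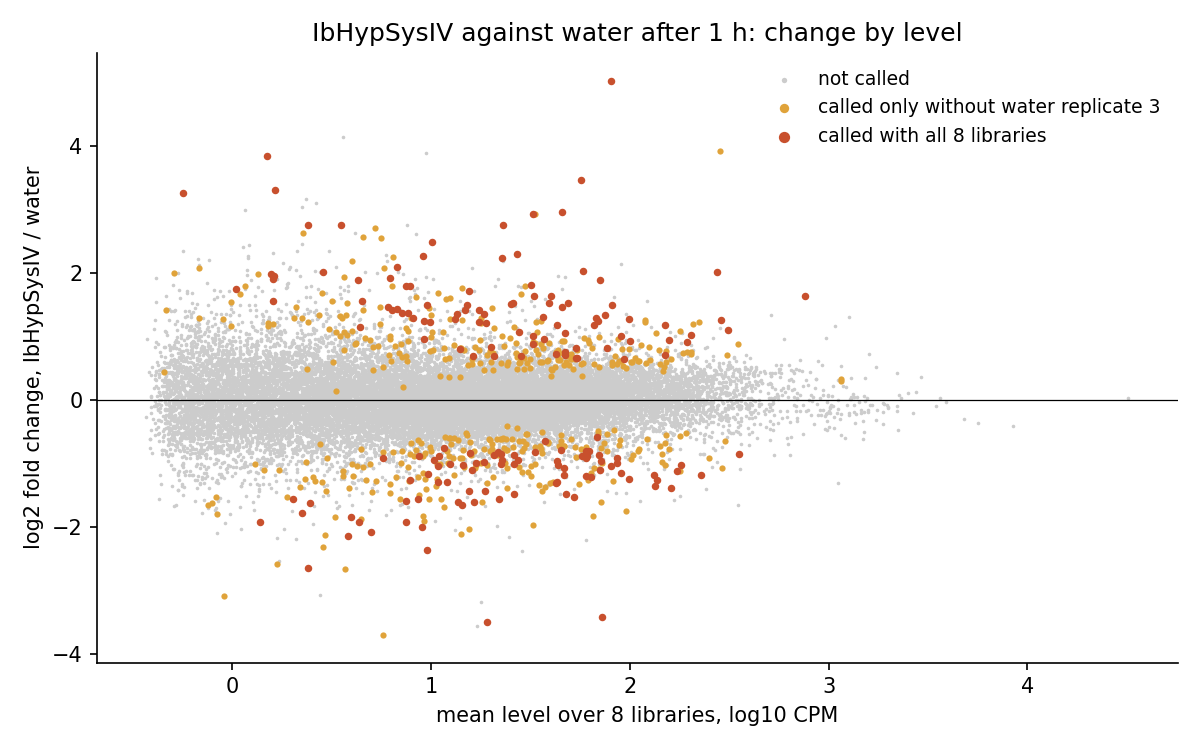
Log2 fold change (IbHypSysIV over water, vertical) against mean level (log10 CPM, horizontal) for the 22547 genes tested with 8 libraries, with 1 point per gene. The 175 called genes lie between 1.502-fold and 32.4-fold, mostly above 1 CPM. The genes called only without water replicate 3 lie mainly at smaller changes among them. All changes shown are those fitted with 8 libraries. For the genes called only without water replicate 3, their median size was 0.86 on the log2 scale, against 1.03 without that library.

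Together the 93 genes that rose took a small part of the scaled reads, which are not corrected for gene length. They took 0.266%, 0.275%, 0.320% and 0.269% of the scaled reads in water replicates 1 to 4. With IbHypSysIV they took 0.700%, 0.690%, 0.761% and 0.692%. The means were 0.283% ± 0.0253 and 0.711% ± 0.0335 (SD, n = 4). The water value was highest in replicate 3 and the treated value highest in IbHypSysIV replicate 3, and the groups did not overlap. The 82 genes that fell took 0.578%, 0.491%, 0.540% and 0.474% in water replicates 1 to 4, and 0.239%, 0.255%, 0.236% and 0.227% with IbHypSysIV. Their means were 0.521% ± 0.0474 and 0.239% ± 0.0119 (SD, n = 4). These genes were chosen for differing between these libraries, so the gap is a description of their share of the scaled reads and was not tested. All 175 had no overlap between the groups, which held for 12.1% of all genes tested and likewise follows from how they were chosen.

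**Figure D2:**
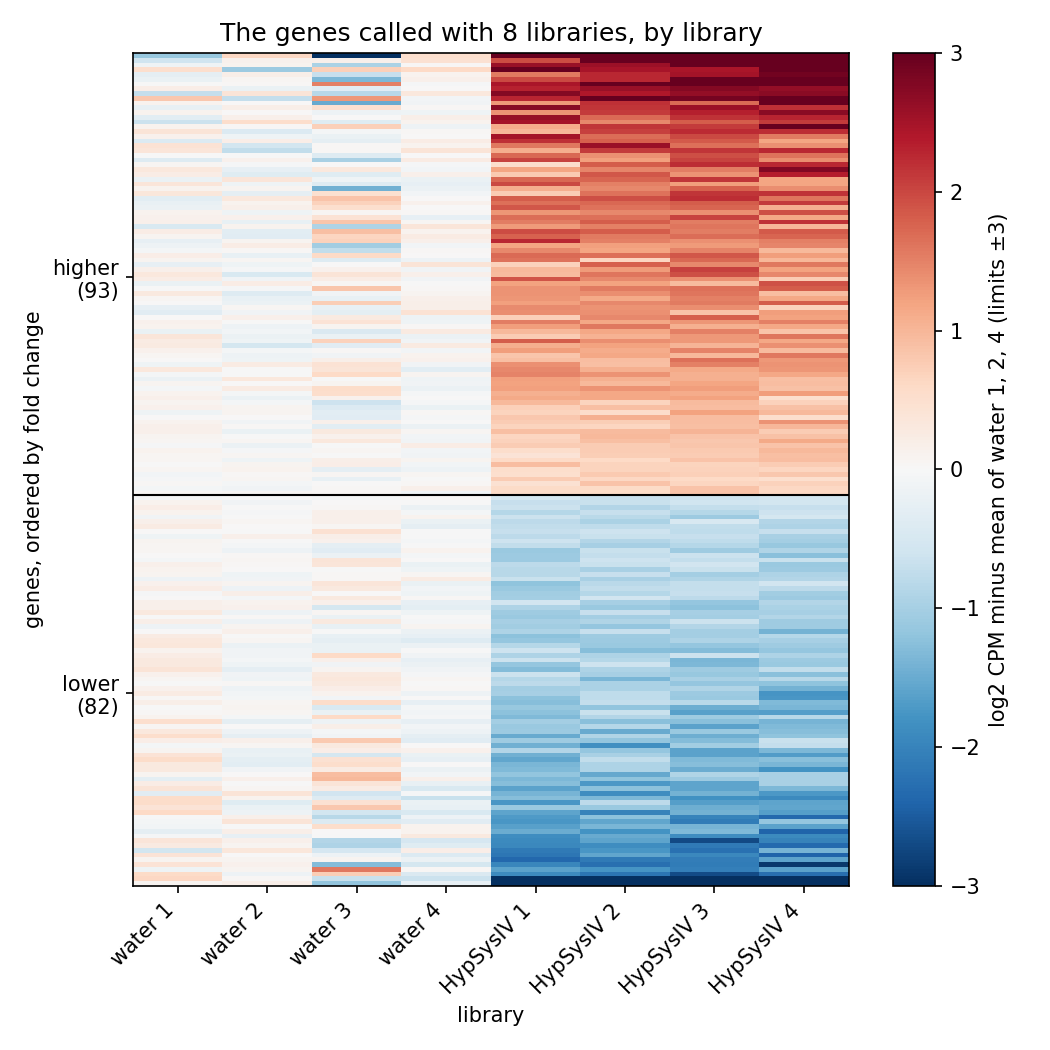
Level of each of the 175 called genes (rows, 93 higher above 82 lower) in each of the 8 libraries (columns), as log2 CPM minus the mean of water replicates 1, 2 and 4, with colours limited at 3 either way. The 4 IbHypSysIV columns are of one colour within each block, and water replicate 3 is patchier than the other water columns.

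Because the table does not pair identifiers with names, 2 genes that rose and 2 that fell are named. They are those called in the most of the 8 fits that leave out 1 library, ranked by fold change among equals. Of the genes that rose, itf03g22580 had few reads. It stood at 1.10, 0.810, 0.734 and 0.962 CPM in water replicates 1 to 4 (16 to 26 counts), and at 5.09, 6.17, 6.89 and 6.40 CPM with IbHypSysIV (111 to 166 counts). The lowest treated library was 4.63-fold above the highest water library, and water replicate 3 was the lowest of all. The mean rose from 0.902 ± 0.163 to 6.14 ± 0.762 CPM (SD, n = 4), a log2 fold change of 2.76 (6.77-fold, SE 0.22, edgeR adjusted p = 0.00574). Without water replicate 3 it was 2.67 (SE 0.23, edgeR adjusted p = 0.00411).

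The gene itf07g14740 rose by nearly the same factor from a higher level. Its water values were 3.89, 8.41, 3.55 and 8.02 CPM in replicates 1 to 4, a pair of low and a pair of higher libraries. Its values with IbHypSysIV were 43.8, 34.3, 40.4 and 42.3 CPM. All treated libraries were at least 4.08-fold above every water library, and the spread within water was wide relative to its level. The log2 fold change was 2.76 (6.76-fold, SE 0.29, edgeR adjusted p = 0.00907). Without water replicate 3 it was 2.57 (SE 0.26, edgeR adjusted p = 0.00457).

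Of the genes that fell, itf05g22090 had a high CPM in water and was variable there. It stood at 212, 141, 86.2 and 87.7 CPM in water replicates 1 to 4, and at 16.6, 11.1, 7.80 and 13.9 CPM with IbHypSysIV. Water replicate 1 was the highest, and even the lowest water library was 5.20-fold above the highest treated one. The log2 fold change was -3.42 (10.7-fold lower, SE 0.35, edgeR adjusted p = 0.00870). Without water replicate 3 it was -3.57 (SE 0.33, edgeR adjusted p = 0.00412).

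The gene itf11g09270 fell less, but with little spread among the treated libraries. Its water values were 18.5, 19.2, 28.1 and 20.9 CPM in replicates 1 to 4, and its values with IbHypSysIV were 6.26, 7.47, 7.39 and 6.34 CPM. Water replicate 3 was the highest library, and without it the water mean was 19.6 ± 1.24 CPM (SD, n = 3) in place of 21.7 ± 4.38 CPM (SD, n = 4). The log2 fold change was -1.66 (3.16-fold lower, SE 0.17, edgeR adjusted p = 0.00870), and -1.51 without water replicate 3 (SE 0.15, edgeR adjusted p = 0.00412). Without sequences or annotation it was not known whether any of the 4 shares reads with a near-identical or antisense gene.

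In the IbPep1 libraries, scaled with all 12 libraries, itf03g22580 stood at 6.24, 4.75, 2.49 and 5.48 CPM and itf07g14740 at 1.60, 0.817, 4.54 and 1.20 CPM. The water and IbHypSysIV values set beside them are those given above, scaled with 8 libraries. For itf03g22580, all 4 IbPep1 libraries lay above every water library. For itf07g14740, replicate 3 lay within the water range and the others below it. The gene itf05g22090 stood at 32.7, 105.2, 57.0 and 50.8 CPM, with replicate 2 within the water range and the others below it but above every IbHypSysIV library. The gene itf11g09270 stood at 16.0, 20.7, 16.7 and 23.7 CPM, overlapping the water libraries. Over the 93 genes that rose, the median log2 fold change against water in a fit of all 12 libraries was 1.41 with IbHypSysIV (quartiles 1.05 and 1.89) and 0.28 with IbPep1 (quartiles -0.32 and 0.85). Over the 82 that fell it was -1.13 (quartiles -1.52 and -0.92) and -0.35 (quartiles -0.67 and -0.030). Over all 23193 genes of that fit it was 0.0075 and 0.0016. Both comparisons share the water libraries, and the genes were chosen on the first.

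**Figure D3:**
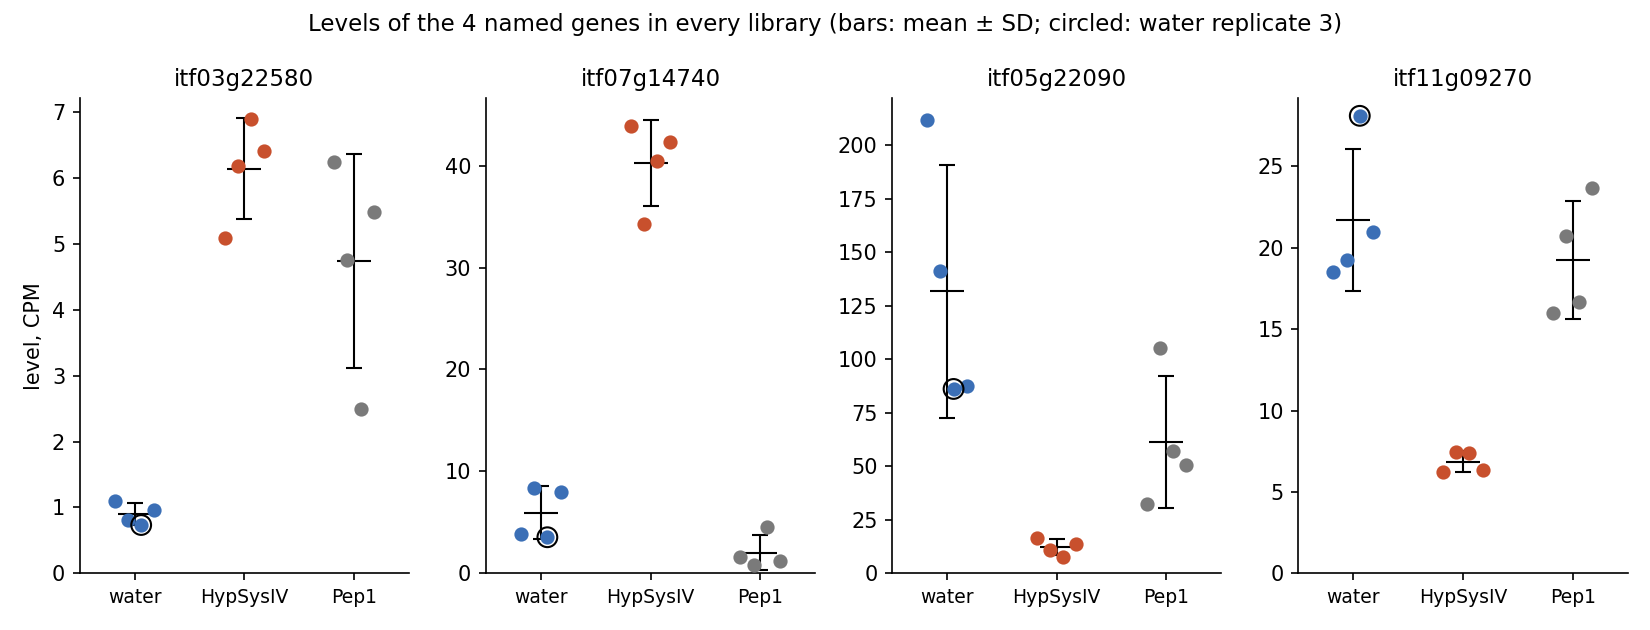
Level in CPM (vertical, from 0, a separate scale per gene) of the 4 named genes in every library, with the mean and SD of each group of 4 as bars and water replicate 3 circled. The IbPep1 points were scaled with all 12 libraries and the other points with 8. The IbHypSysIV points lie apart from the water points for each gene, from 2.48-fold for itf11g09270 to 5.20-fold for itf05g22090 between the nearest libraries.

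How many genes were called rested on single libraries. Leaving out water replicate 1, 2 or 4 left 6, 10 or 14 calls, while leaving out water replicate 3 gave 603. Leaving out IbHypSysIV replicate 1, 2, 3 or 4 left 91, 113, 11 or 84. The genes called without water replicates 1, 2 and 4 or IbHypSysIV replicate 3 were all among the 175. Without IbHypSysIV replicates 1, 2 and 4, 66, 70 and 62 were. The balance of directions moved as well, from 60 higher and 31 lower without IbHypSysIV replicate 1 to 44 higher and 69 lower without IbHypSysIV replicate 2.

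The fitted changes of the 175 genes moved little: the median ratio of the log2 fold change to that with 8 libraries was 0.985 to 1.02 over the 8 fits. Their direction could not turn, since their groups do not overlap. The adjusted p moved more. The median adjusted p of the 175 genes was 0.121, 0.112 and 0.0918 without water replicates 1, 2 and 4, and 0.124 without IbHypSysIV replicate 3 (edgeR). Leaving out IbHypSysIV replicate 1, 2 or 4 gave a median of 0.0570, 0.0584 or 0.0570, and leaving out water replicate 3 one of 0.0249 (edgeR). The common biological coefficient of variation, edgeR's measure of spread between replicates, was 27.5% with 8 libraries and 23.5% without water replicate 3, and 26.2% to 29.0% with another library left out. Of the 175 genes, 6 were called in all 8 of these fits, 4 of them higher and 2 lower, and the 4 named genes are among them. Another 11 were called in at least 5 fits, and 72 only in the fit without water replicate 3.

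**Figure D4:**
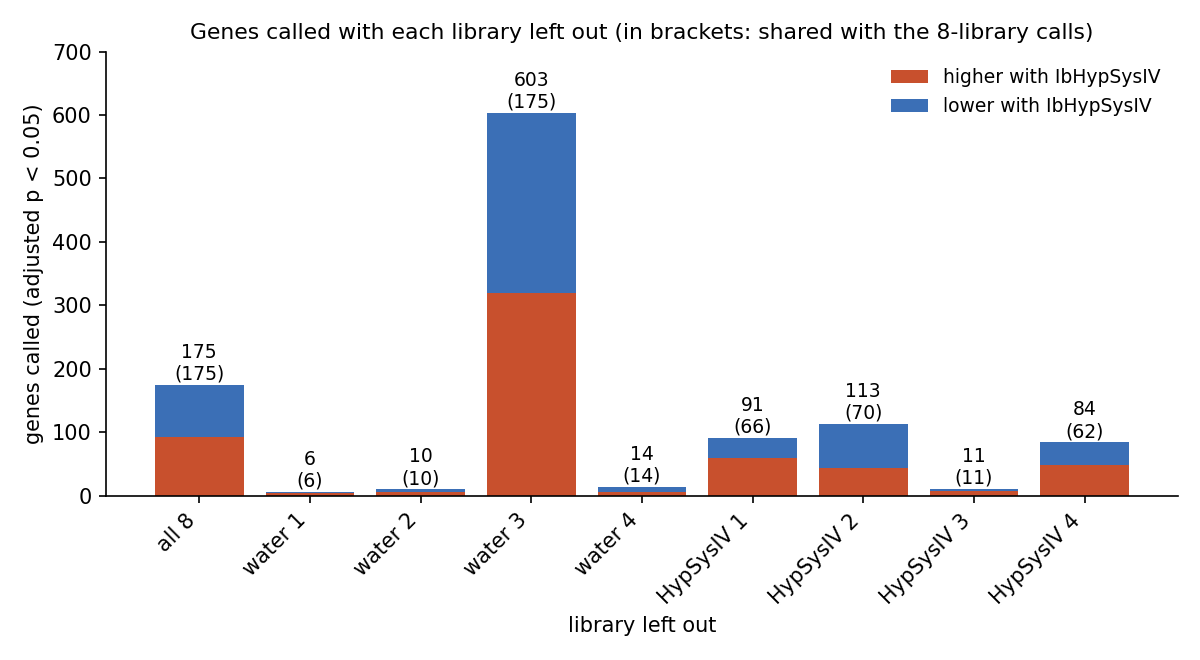
Number of genes called (vertical, from 0) with all 8 libraries and with each library left out in turn, split into higher and lower, with the number shared with the 175 calls in brackets. The count lies between 6 and 113 for every library except water replicate 3, without which it is 603.

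A left-out library did not choose the genes called from the other 7, so its place on those genes is a separate measurement. Those genes were picked for a gap between the groups in the other 7 libraries. Some shift of a left-out library toward the other group can follow from that choice. Places were computed on log2 CPM, with 0 at the mean of the water libraries and 1 at the mean of the IbHypSysIV libraries. Water replicates 1, 2 and 4 had median places of -0.21, 0.10 and 0.15, on lists of only 6, 10 and 14 genes, and each lay on the water side of the midpoint for every gene of its list. IbHypSysIV replicate 3 had a median place of 1.09 on 11 genes, all on the treated side. The other treated libraries fell short of the group mean that the rest had set. The median places of IbHypSysIV replicates 1, 2 and 4 were 0.63, 0.63 and 0.80, with 57 of 91, 71 of 113 and 61 of 84 genes on the treated side.

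The lists above differ in length, so the places were also taken on the 100 genes with the smallest p in each fit, an alternative chosen after seeing the data. On these the water libraries 1, 2 and 4 had 95, 97 and 91 genes on their own side, and IbHypSysIV replicates 1 to 4 had 62, 65, 93 and 74. Water replicate 3 had 65. The median places were 0.03, 0.14 and 0.19 for water replicates 1, 2 and 4, 0.37 for water replicate 3, and 0.63, 0.69, 0.99 and 0.80 for IbHypSysIV replicates 1 to 4. Water replicate 3 and IbHypSysIV replicates 1 and 2 therefore had the fewest genes on the side of their label. The lists of the other libraries came from fits that held water replicate 3, and its own list did not. Equal length therefore does not make its list fully comparable with theirs.

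On the 603 genes called without it, water replicate 3 had a median place of 0.42, with an interquartile range from 0.04 to 0.82. It lay on the water side of the midpoint for 346 genes, or 57.4%, and beyond the IbHypSysIV mean for 97. The displacement was found in both directions, with a median place of 0.44 on the genes that were higher with IbHypSysIV and 0.36 on those that were lower. The 320 higher genes took 1.70% of the scaled reads in water replicate 3, against 0.980% to 0.998% in the other water libraries and 2.12% to 2.24% with IbHypSysIV. The 283 lower genes took 1.221% in that library, against 1.43% to 1.63% in the other water libraries and 0.699% to 0.805% with IbHypSysIV.

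Water replicate 3 thus separates the 603 genes into 2 parts. On the 428 called only without it, 227 higher and 201 lower, its median place was 0.63, and it was past the midpoint for 254. On the 175 called with all 8 libraries its median place was -0.0068, and it was past the midpoint for 3. Both parts were chosen by a fit that used this library, so these places describe the parts and test nothing. The 428 genes changed somewhat less, by a median of 1.03 on the log2 scale without water replicate 3 against 1.25 for the 175.

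**Figure D5:**
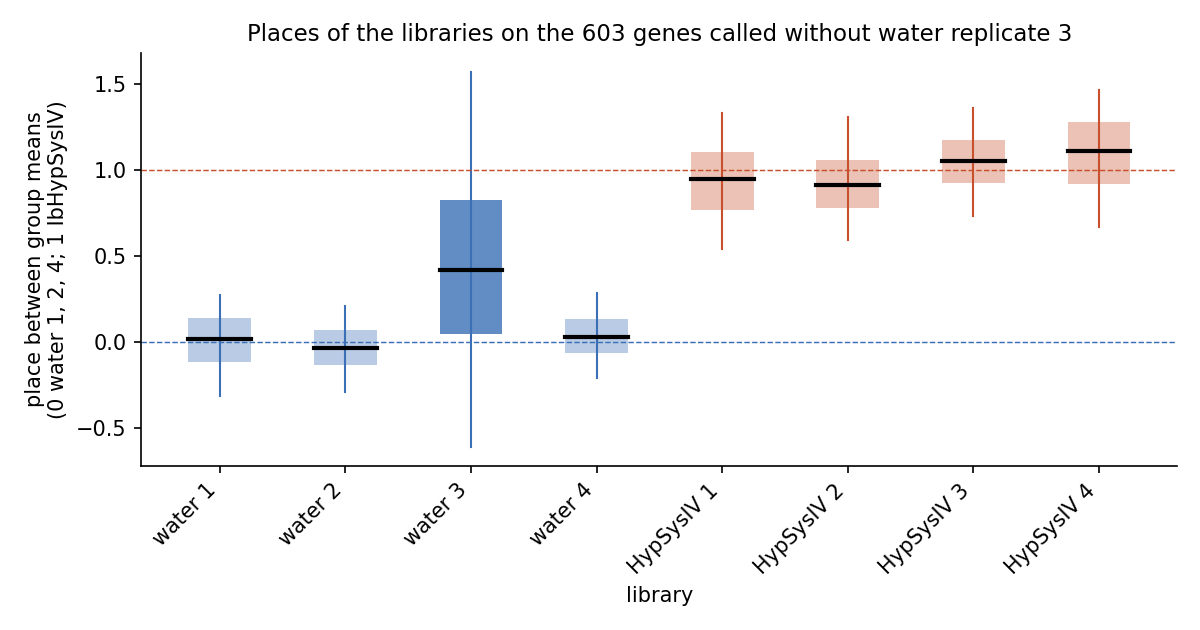
Place of each of the 8 libraries (horizontal) between the mean of water replicates 1, 2 and 4 (0) and the IbHypSysIV mean (1) on the 603 genes called without water replicate 3 (boxes the interquartile range, black line the median, thin lines the 5th to 95th percentile). The 7 libraries that chose the genes sit near 0 or 1 by construction, and water replicate 3, which did not, has its median at 0.42.

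By identifier, called genes were found under all 16 prefixes of the table. Those beginning itf03 held the most, with 28 of 1766 tested genes called (1.59%), 17 higher and 11 lower, and itf00 the fewest, with 2 of 770 (0.260%), against 0.776% over all genes. Under itf07 all 6 called genes were higher, and under itf12 1 was higher and 12 lower. Few called genes stood next to each other. With 8 libraries their share was near that over all tested genes, and without water replicate 3 it was above it. The 175 genes are part of the 603, so the fits are not independent here. Of the 175, 4 had a called gene as the next tested identifier (2.29%, against 1.55% of all tested genes), in 2 pairs that were both higher. Without water replicate 3, 55 of the 603 had such a neighbour (9.12%, against 5.24% of all tested genes), in 29 pairs of which 19 shared a direction. These shares are counts over identifiers and were not tested.

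In 5 measures of the libraries as a whole no difference between the treatments was found, by a test that could detect little with 4 libraries per group. After thinning to the smallest total, 24521 ± 92.7 genes had at least 3 counts in water and 24627 ± 209 with IbHypSysIV (SD, n = 4, exact two-sided permutation p = 0.400). The most abundant gene took 3.20% ± 0.622 and 3.20% ± 0.827 of all counts (SD, n = 4, exact permutation p = 1). The 100 most abundant genes took 20.2% ± 1.38 and 19.2% ± 3.01 (SD, n = 4, exact permutation p = 0.629), with the lowest share, 15.1%, in IbHypSysIV replicate 4. Shannon entropy of the counts was 12.4 ± 0.105 and 12.4 ± 0.216 bits (SD, n = 4, exact permutation p = 0.914), and identifiers beginning itf00 took 1.32% ± 0.0355 and 1.32% ± 0.0434 of counts (SD, n = 4, exact permutation p = 0.971). Adjusted over these 5 measures every p was 1, and the smallest p that 4 against 4 libraries allow is 0.0286 before adjustment. A single measure at that smallest p would not have passed after adjustment over the 5. The adjusted test therefore cannot decide whether 1 measure alone differed. Before adjustment the smallest exact permutation p found was 0.400, so no measure came near that limit.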

How the data were processed

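The authors deposited raw read counts per gene identifier, whole numbers in 1 column per library. The submitters' processing notes name the tools HISAT2 2.0.5, HTSeq 0.6.1 and also DESeq2 1.22.2, with no roles. Build, annotation and strand setting were not given in the sources used here, so a gene cannot be told apart from an antisense or overlapping partner. Per the labels' protocols, RNA was extracted with TRIzol, and both a NEBNext and a SMARTER kit are named without saying which library used which. Groups follow the source names. Replicates are numbered in accession order.

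In R 4.3.3, filterByExpr kept 22547 of 32301 genes (99.9% of counts) for the 8 libraries and 22746 for the 7 without water replicate 3. TMM factors were 0.933 to 1.07, and levels are CPM scaled by them. Each set was fitted alone, with group as the only term, by glmQLFit and glmQLFTest in edgeR 4.0.16. SE was the absolute log2 fold change divided by the square root of F. Places used log2(CPM + 0.1), correlations a prior count of 2. Alternatives used DESeq2 1.42.0 and limma 3.58.1. The fits were also run on simulated counts in which no library was made unlike its group, so that run does not cover water replicate 3. No pair of libraries in a group agreed within sampling noise (chi-square per degree of freedom at least 13.5).

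Named genes were called with 8 and with 7 libraries, had a mean of at least 1 CPM and non-overlapping groups, and were ranked by the number of 8 leave-one-out fits that called them, then by fold change. Members, rule and lists were chosen with earlier results of these data known. Product-based gene lists matched nothing (0 used).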

Additional observations from a re-analysis of the deposited data

Results flagged for a closer look

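In 30 groups of 4 values examined for a library far from the others, 4 such values were found, and about 1 in 20 groups is found by chance for independent values. The mean correlation of water replicate 3 with the rest of its group was 0.941, the lowest of the water libraries. The genes higher with IbHypSysIV took 0.320% of its scaled reads for the 93 genes called with 8 libraries, and 1.70% for the 320 genes called without it, above the other water libraries in both cases. IbHypSysIV replicate 3 had the highest share of scaled reads in the 93 genes, 0.761%. These shares are sums over genes chosen on these libraries.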

How the results depend on the processing

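The count of 175 genes was 154 (77 higher, 77 lower) with DESeq2's size factors in edgeR, 187 with upper-quartile scaling, 162 with no filter on low counts and 189 with a mean of at least 1 CPM. It became 116 with limma-voom, 536 in a fit of all 3 groups and 1598 with DESeq2, and ranged from 6 to 603 with 1 library left out. The count of 603 without water replicate 3 became 2274 with DESeq2, 970 in a fit of all 3 groups and 34 to 1674 with 1 more library left out: dropping water replicate 1, 2 or 4 gave 35, 34 or 42, and dropping IbHypSysIV replicate 1, 2, 3 or 4 gave 609, 1674, 75 or 701. The cause of the differences between tools was not tested.

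The titles give numbers 1 and 4 to a library of each group. With this replicate block edgeR's quasi-likelihood test called 0 genes with 8 libraries and 0 without water replicate 3, with 1576 and 1599 genes at an unadjusted p under 0.05 and 1 residual degree of freedom with 8 libraries. No other tool was run with the block. Deviations of the same-numbered libraries correlated at -0.0820 and 0.103. With only 2 such pairs, these values cannot show whether the numbers mark a pairing of the libraries. The 4 named genes kept their direction in all 16 alternatives and their call in 15, the block being the exception (log2 fold changes 2.43, 2.78, -3.33 and -1.53 for itf03g22580, itf07g14740, itf05g22090 and itf11g09270). They were chosen for being called in the 8 fits that leave out 1 library, so their calls in those fits follow from the choice. They were also chosen for groups that do not overlap, so their kept direction follows from the choice as well.

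Of the library-wide measures, the difference in genes with at least 3 counts (IbHypSysIV minus water) was -6.25 without thinning, and 37.5 to 200 with 1 library left out. With 1 library left out the differences ranged from -0.300 to 0.387 percentage points for the most abundant gene, -1.99 to 0.302 for the 100 most abundant, -0.0220 to 0.00900 for itf00 identifiers and -0.0618 to 0.102 bits for entropy. None passed the exact permutation test. With 1 library left out none could have passed, since the p of 4 against 3 libraries cannot go below 0.0571. The median places of left-out libraries moved by less than the spread within their group under the alternatives run for them. Below 1 CPM, 0.0513% of genes were called with 8 libraries and 0.980% without water replicate 3, and what change could be detected at that level was not measured.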

Other observations

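Across the 22547 genes tested, the deviations of water replicate 3 and IbHypSysIV replicate 4 from their group means on log2 CPM correlated at 0.406, the highest of the 16 pairs of a water and a treated library, where the others ranged from -0.324 to 0.307. Deviations within a group sum to 0, so the pairs are not independent, and genes are not replicates. IbHypSysIV replicate 4 also had the smallest total, 16607188 counts, the lowest mean correlation with its own group among the treated libraries, 0.958, and the smallest share of counts in its most abundant gene, 2.05%, next to 2.29% in water replicate 3. With both libraries left out, 701 genes were called by edgeR's quasi-likelihood test, 383 higher and 318 lower. Leaving out IbHypSysIV replicate 1, 2 or 3 with water replicate 3 instead gave 609, 1674 or 75, so 701 is not particular to this pair. Whether the 2 libraries share a source of variation was not tested.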
